A study of Mus musculus with 10 samples.

Results

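Laser-captured ameloblasts were compared with the stratum intermedium captured beside them, layer against layer within 5 pairs of RNA-seq libraries from mouse hemi mandibles. All 10 of the 10 libraries of the series entered the comparison. Each pair was 1 ameloblast and 1 stratum intermedium library whose names carry the same prefix (WT10, WT5, KO1, KO3 or KO9). The 2 WT pairs were wild type for claudin 10 and the 3 KO pairs were labelled as claudin 10 knockouts, with no further treatment named. That a shared prefix marks the same mouse is an inference from the names, and no label says that the pairs are separate animals. If they are not, a p-value here reflects the variation of these libraries alone, some of it possibly technical. Not given in the sources read are the strain, sex and age of the animals, where along the tooth the capture was made and which part of Cldn10 was deleted. The authors normalized the ameloblast and the stratum intermedium table separately. The stratum intermedium values were therefore multiplied by 0.9019, the median ratio over the 14187 genes above 0 in all 10 libraries. Both tables listed 15625 genes, out of 17305 listed in either. A layer difference below is the log2 of the ameloblast value minus the log2 of the stratum intermedium value, so that positive values are higher in ameloblasts.

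The enamel organ is the epithelium that builds tooth enamel. Its ameloblasts are tall polarized cells that secrete amelogenin, ameloblastin and enamelin into the enamel space, where the protease MMP20 trims them, and that later switch to removing protein and water and to moving calcium, phosphate and bicarbonate. The stratum intermedium is the flatter cell layer against their basal side. It is known for strong alkaline phosphatase activity, for Notch signalling and for transport towards the ameloblasts, and claudin 10, a claudin that forms ion channels between cells, has been described there. In the continuously growing mouse incisor, dividing progenitors lie at the cervical end, and blood vessels reach the outer side of the enamel organ.

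The promoters of the 4 enamel matrix genes that separated the layers are shown first, because these genes moved together. Each line gives the 250 bases before the annotated start from RefSeq (GRCm38.p6), 5′ to 3′ on the strand of the gene. Capitals mark the letters TATAAA, called the TATA box below, and the letters CCAAT, called the CCAAT box below, each searched on both strands, so that CCAAT can read as ATTGG.
Amelx promoter, chrX:169187210-169187459, minus strand: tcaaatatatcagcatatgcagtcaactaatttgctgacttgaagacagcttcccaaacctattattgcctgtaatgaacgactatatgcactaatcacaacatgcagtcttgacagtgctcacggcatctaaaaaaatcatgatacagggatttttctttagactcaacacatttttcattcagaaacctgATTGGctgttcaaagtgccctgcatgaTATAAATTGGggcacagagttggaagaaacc
Ambn promoter, chr5:88455741-88455990, plus strand: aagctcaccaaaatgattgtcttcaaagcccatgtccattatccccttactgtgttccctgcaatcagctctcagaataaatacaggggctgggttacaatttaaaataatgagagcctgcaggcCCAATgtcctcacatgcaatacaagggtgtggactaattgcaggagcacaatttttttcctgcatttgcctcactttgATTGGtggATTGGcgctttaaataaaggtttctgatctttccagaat
Enam promoter, chr5:88487725-88487974, plus strand: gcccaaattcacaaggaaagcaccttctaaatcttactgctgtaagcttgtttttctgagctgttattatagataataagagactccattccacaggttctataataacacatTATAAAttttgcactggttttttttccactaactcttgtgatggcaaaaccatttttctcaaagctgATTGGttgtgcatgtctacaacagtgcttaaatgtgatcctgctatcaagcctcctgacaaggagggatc
Mmp20 promoter, chr9:7627981-7628230, plus strand: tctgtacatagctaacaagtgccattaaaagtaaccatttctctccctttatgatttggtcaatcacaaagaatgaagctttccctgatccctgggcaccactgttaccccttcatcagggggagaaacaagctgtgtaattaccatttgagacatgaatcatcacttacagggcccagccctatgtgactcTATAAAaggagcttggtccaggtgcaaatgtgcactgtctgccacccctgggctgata
A TATA box match lay 31 to 26 bases before the start in Amelx, 137 to 132 in Enam and 58 to 53 in Mmp20. In Amelx it shares 1 base with a CCAAT box match 26 to 22 bases before the start, and a second match lies at 58 to 54. Ambn held 3 CCAAT box matches and no TATA box match. TATAAA was present in 8.17% and CCAAT in 40.3% of the windows of the 11137 tested genes that had one. Of the 15 secretory ameloblast genes that passed the test described below, 11 had a window, of which 4 held TATAAA and 7 held CCAAT. Of all genes with a window that passed higher in ameloblasts, 8.97% held TATAAA and 42.7% held CCAAT. For those higher in the stratum intermedium the shares were 12.3% and 43.7%. These matches describe letters and say nothing of which factor binds.

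Each ameloblast library summed to 22135034 to 26856177 normalized counts, and each library of the stratum intermedium to 21006977 to 24053340. Sequencing depth cannot be read from them. Between 33 and 854 genes per library were listed at 0, with 706 and 854 in the WT10 pair and 33 and 36 in the WT5 pair. The WT5 pair stood apart. Their SD over genes was 0.62 on the log2 scale in WT5, against 0.89 in KO3, 1.35 in KO9, 1.36 in KO1 and 1.73 in WT10, and 8.08% of genes differed by at least 2-fold in WT5 against 19.4% to 33.9% in the others. The WT5 libraries were also the highest of their layer in the summed share of several marker lists of other tissues. In ameloblasts and stratum intermedium of WT5 red blood cell genes made up 1.28% and 0.912%, against at most 0.259% in any other library, osteoclast genes 0.775% and 0.940%, osteoblast genes 7.06% and 8.04%, odontoblast and pulp genes 6.14% and 7.17%, and fibroblast genes 4.84% and 5.25%. The part of these tissues in the small differences of WT5 was not tested. Both libraries of a pair also carry the same group number in their names (1 for WT5 and KO3, 2 for WT10 and KO9, 3 for KO1), whose meaning the labels do not give, so that any effect of that number is shared by the layers of a pair. Fewer cells of a type and less RNA per cell cannot be told apart in captured tissue.

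The layers differed in 1266 of the 15610 genes tested (8.11%), at an adjusted p under 0.05 with limma on log2(normalized count + 1) and the prefix as a block. Of these, 740 (4.74%) were higher in ameloblasts and 526 (3.37%) in the stratum intermedium. The balance of the directions depended on how the tables were brought to 1 scale, with 445 and 1548 calls after scaling by totals and 501 and 893 without rescaling. The direction was the same in all 5 pairs for 674 of the 740 and for 494 of the 526, and over all genes tested 10.6% were higher in ameloblasts and 10.4% higher in the stratum intermedium in every pair. The median difference was 1.15 among the genes higher in ameloblasts and -1.24 among those higher in the stratum intermedium, where 461 and 370 genes differed by at least 2-fold. The layers did not overlap at all, library for library, for 362 and 289 of them, against 3.18% and 3.13% of all genes. The shared direction over pairs and the lack of overlap come from the same values as the calls, so neither is separate support. Fits that leave out 1 pair reuse most of the data behind the calls, so the directions kept in them are no separate support either. The number of calls depended on single pairs. Without pair KO1 it fell to 7 genes and without KO9 to 4, without KO3 to 214, without WT10 to 416 and without WT5 it rose to 2164, while all 1266 genes kept their direction each time and between 2953 and 4397 genes had an unadjusted p under 0.05. Fxyd3, Fxyd4 and Col9a3 passed in each of these 5 fits. Acp4, Clu, Gm40193 and Hhip were the others that passed without KO1, and Crtac1 the other that passed without KO9. All further calls below were lost without KO1 and without KO9.

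**Figure D1:**
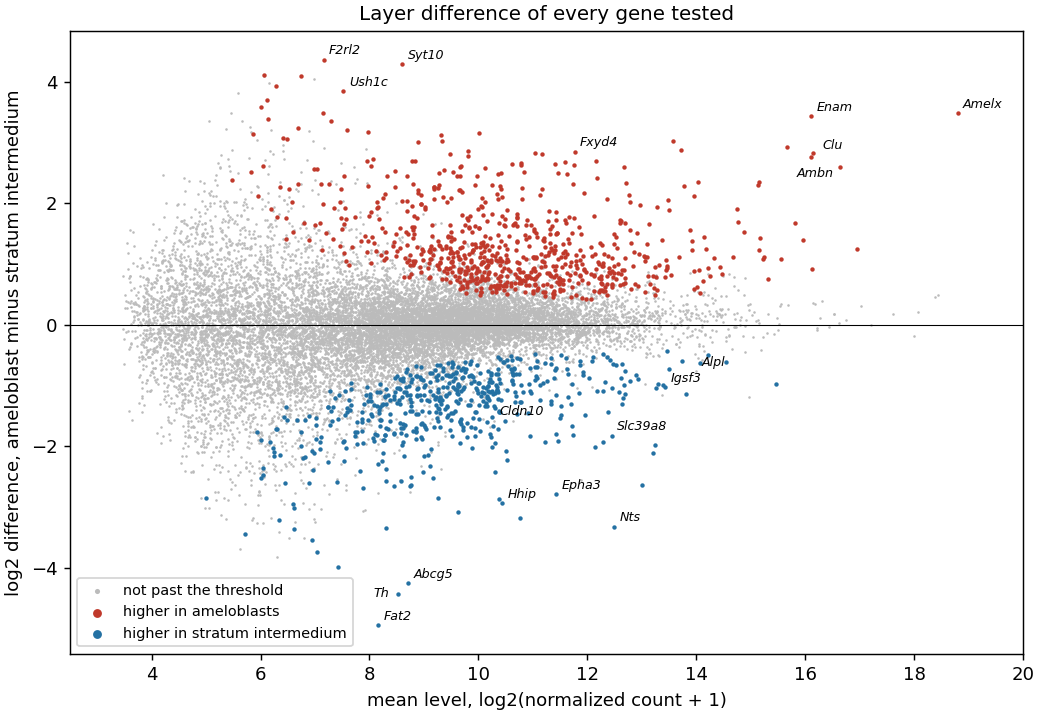
Layer difference (vertical axis, log2, ameloblast minus stratum intermedium) against mean level (horizontal axis, log2 of the normalized count plus 1) for the 15610 genes tested, each point 1 gene. The 740 genes called higher in ameloblasts are red, the 526 called higher in the stratum intermedium are blue, and the enamel matrix genes Amelx, Enam and Ambn lie far to the upper right.

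The enamel matrix genes separated the layers in every pair. Amelx (ENSMUSG00000031354, chromosome X, 169176114 to 169187200 in GRCm38), which encodes amelogenin, the main protein of forming enamel, stood at 905195 in WT10, 460452 in WT5, 1704036 in KO1, 691203 in KO3 and 387348 in KO9 in ameloblasts (mean 829647 ± 529472, SD, n = 5). Its stratum intermedium values were 67476 in WT10, 149906 in WT5, 106053 in KO1, 66726 in KO3 and 15164 in KO9 (mean 81065 ± 50241). The lowest ameloblast library was above the highest stratum intermedium library, and the difference was 11.2-fold (log2 3.48, SE 0.38, adjusted p = 0.00819). KO1 was the highest of the ameloblast libraries and KO9 the lowest of both layers.

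Ambn (ENSMUSG00000029288, chromosome 5, 88455991 to 88468531), which encodes the cell-binding matrix protein ameloblastin, stood at 111434 in WT10, 63797 in WT5, 300367 in KO1, 91477 in KO3 and 54041 in KO9 in ameloblasts. In the stratum intermedium it stood at 12540.0 in WT10, 24821 in WT5, 26939.6 in KO1, 15030.3 in KO3 and 5795 in KO9. The layers did not overlap and differed 6.79-fold (log2 2.76, SE 0.28, adjusted p = 0.00819). Enam (ENSMUSG00000029286, chromosome 5, 88487975 to 88506049), the gene of the large matrix protein enamelin, ranged from 26559 to 405084 in ameloblasts and from 1454 to 24197 in the stratum intermedium, with differences of 3.55 in WT10, 1.38 in WT5, 4.71 in KO1, 3.34 in KO3 and 4.19 in KO9 (log2 3.43, SE 0.40, adjusted p = 0.00846). Mmp20 (ENSMUSG00000018620, chromosome 9, 7628231 to 7674979), which encodes the protease enamelysin, ranged from 10753 to 38052 and from 633 to 4598 (log2 3.03, SE 0.37, adjusted p = 0.00999). For all 4 genes the WT5 pair had the smallest difference, between 1.23 and 1.62, and its stratum intermedium library had the highest level of that layer for Amelx, Enam and Mmp20. Transcripts of the enamel matrix were present in all 5 stratum intermedium captures.

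Cldn10 and Alpl, the genes taken as marks of the stratum intermedium, separated the layers less clearly. Cldn10 (ENSMUSG00000022132, chromosome 14, 118787908 to 118875489), the gene targeted in the KO mice, stood at 6545 in WT10, 2133 in WT5, 904 in KO1, 349 in KO3 and 419 in KO9 in the stratum intermedium. In ameloblasts it stood at 600.1 in WT10, 752 in WT5, 280.1 in KO1, 408 in KO3 and 149 in KO9. It was higher in the stratum intermedium in 4 of 5 pairs, the layers overlapped, and the difference did not pass (log2 -1.58, SE 0.42, adjusted p = 0.0553). Within WT pairs it was -2.47 and within KO pairs -0.98. Cldn10 passed under 7 of 19 alternative settings, among them scaling by totals and leaving out pair KO3.

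Alpl (ENSMUSG00000028766, chromosome 4, 137741733 to 137796384), the gene of tissue-nonspecific alkaline phosphatase, the classical stain of this layer, stood at 23533 in WT10, 18894 in WT5, 28520.3 in KO1, 15212 in KO3 and 16269 in KO9 in the stratum intermedium. Its ameloblast values were 6714 in WT10, 12402 in WT5, 14345 in KO1, 15829 in KO3 and 11709.9 in KO9. Again 4 of 5 pairs were higher in the stratum intermedium, the ranges overlapped, and the difference did not pass (log2 -0.77, SE 0.23, adjusted p = 0.0841). Slc39a8 (ENSMUSG00000053897, chromosome 3, 135825279 to 135888572), which encodes a zinc and manganese importer, stood at 14023 in WT10, 3863 in WT5, 10988 in KO1, 4901 in KO3 and 8675 in KO9 in the stratum intermedium. It stood at 949 in WT10, 967 in WT5, 3408 in KO1, 5289 in KO3 and 2730.1 in KO9 in ameloblasts. Among Cldn10, Alpl, Slc39a8 and Enpp2, Slc39a8 was the 1 gene that passed (log2 -1.83, SE 0.44, adjusted p = 0.0428), with overlapping layers.

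Enpp2 (ENSMUSG00000022425, chromosome 15, 54838901 to 54952892), the gene of autotaxin, which makes lysophosphatidic acid, stood at 24956 in WT10, 8481 in WT5, 17685 in KO1, 7191 in KO3 and 12088 in KO9 in the stratum intermedium. Its ameloblast values were 2132 in WT10, 2626 in WT5, 9829 in KO1, 13167 in KO3 and 8199 in KO9, low in both WT libraries and higher in all 3 KO libraries. The pooled difference did not pass (log2 -1.15, SE 0.51, adjusted p = 0.208). In pair KO3 all 4 of these genes went the other way, by 0.057 for Alpl, 0.11 for Slc39a8, 0.22 for Cldn10 and 0.87 for Enpp2. The ameloblast label was thus borne out by its defining genes in every pair. For the stratum intermedium label, Cldn10 and Alpl were higher in that layer in 4 of 5 pairs, and neither passed the test. Slc39a8, which passed, and Enpp2 were markers with no layer fixed beforehand, so their direction here is no support for the label.

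**Figure D2:**
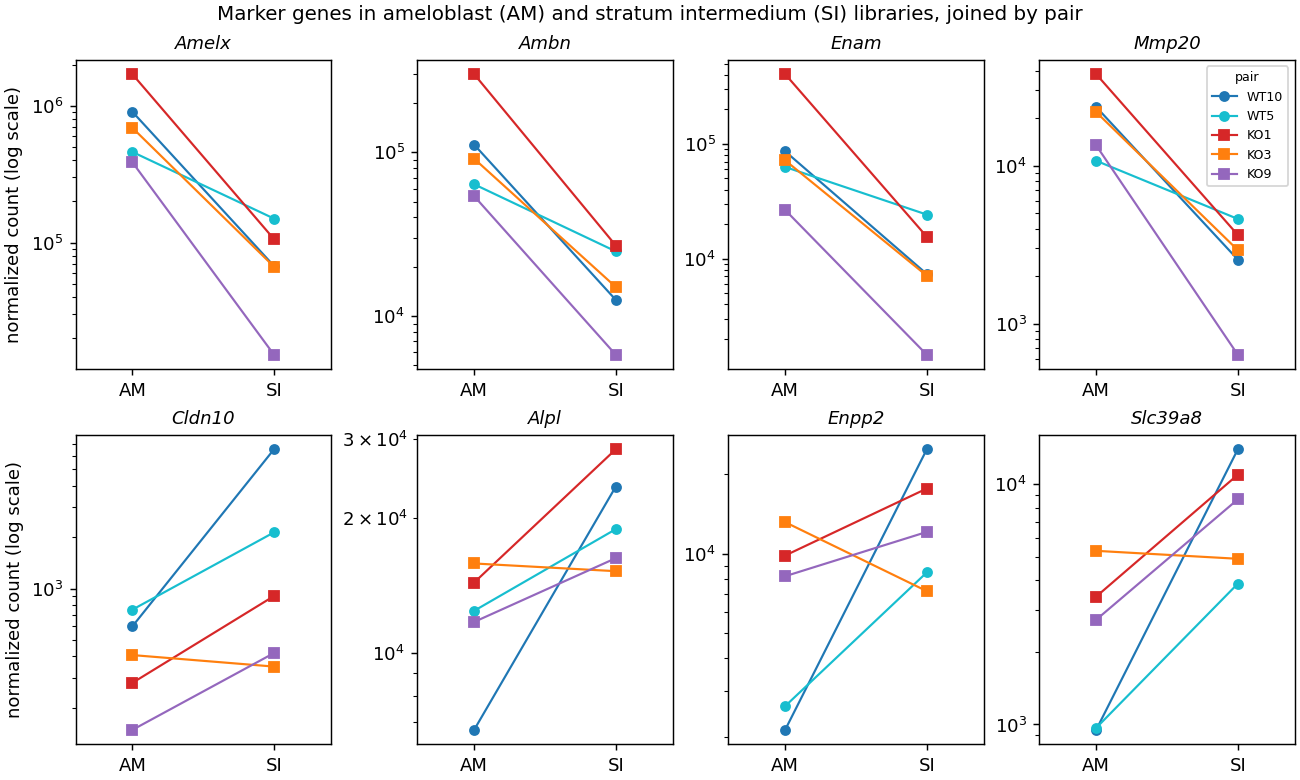
Normalized counts (log scale) of 8 marker genes in the ameloblast (AM) and stratum intermedium (SI) library of each pair, joined by a line, with circles for the 2 WT and squares for the 3 KO pairs. Amelx, Ambn, Enam and Mmp20 fall from AM to SI in all 5 pairs, and Cldn10, Alpl, Enpp2 and Slc39a8 rise in every pair but KO3.

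The longer list of secretory ameloblast genes gave the same picture for that layer. Of 24 secretory ameloblast genes, 22 had a positive difference, where 49.6% of all genes tested had one, and 15 passed, all higher in ameloblasts, with a median of 1.72 where all genes tested had a median of -0.0039. Without pair KO1 and without KO9, 1 and 0 of them passed, 18 and 17 had an unadjusted p under 0.05, and the medians were 1.64 and 1.60. Besides the matrix genes these included the acid phosphatase gene Acp4 (log2 2.81, SE 0.30, adjusted p = 0.00819), the secretory pathway kinase Fam20c (1.86) and its partner Fam20a (1.82), both required for normal enamel. Dspp, which encodes the dentin sialophosphoprotein that early ameloblasts also make, was 2.93. Odam, a gene of the later, maturation stage, was lower at -1.68 without passing, and its pairs ran from -4.21 in WT10 to 0.40 in WT5.

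Of 17 stratum intermedium and papillary layer genes, 12 had a negative difference and 1 (Slc39a8) passed higher in the stratum intermedium, while Perp, a desmosome gene, passed higher in ameloblasts (1.24). The list's median was -0.55 in the fit, with -1.47 in pair WT10 and 0.62 in pair KO3. Notch1, the Notch receptor known in this layer, was -0.65 and its target Hes1 -0.59, neither past the threshold. Summed over the list, these genes made up 0.540% to 1.27% of the stratum intermedium libraries and 0.387% to 0.940% of the ameloblast libraries. The secretory ameloblast list made up 0.206% to 1.12% and 2.70% to 9.85%. The sum of the stratum intermedium list was higher in that layer in WT10, WT5 and KO1. It was higher in ameloblasts in KO3 (0.940% against 0.540%) and in KO9 (0.930% against 0.677%). Of its 17 genes, 2 were higher in ameloblasts in all 5 pairs and 0 in the stratum intermedium. Of 13 outer enamel epithelium and stellate reticulum genes, 3 passed higher in the stratum intermedium, Acta2 (-1.19), Igfbp2 (-2.02) and Igfbp5 (-0.62), where Acta2 is also a mark of mural cells and the other two encode binding proteins of insulin-like growth factors.

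The genes with the smallest p-values higher in ameloblasts included 2 FXYD genes, which encode small membrane subunits that tune the sodium-potassium pump. Fxyd3 (ENSMUSG00000057092, chromosome 7, 31068172 to 31076704) stood at 10019.5 in WT10, 4668 in WT5, 15990.3 in KO1, 7088 in KO3 and 5056 in KO9 in ameloblasts. It stood at 2259 in WT10, 1605 in WT5, 2727 in KO1, 1892 in KO3 and 1103 in KO9 in the stratum intermedium, with no overlap (log2 2.07, SE 0.15, adjusted p = 0.0032). Fxyd4 (ENSMUSG00000004988, chromosome 6, 117933559 to 117937692) ranged from 1573 to 16648 and from 186 to 1317 (log2 2.85, SE 0.22, adjusted p = 0.0033). The pump's own subunits in the sodium, potassium, chloride and magnesium list did not pass, and of its 21 genes 3 passed higher in ameloblasts, Kcnk1 (2.05), Trpm7 (1.50) and Clcn3 (0.80), and 1 in the stratum intermedium, the sodium-potassium-chloride cotransporter gene Slc12a2 (-1.92). Scaled by totals, 2 and 5 passed.

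Clu (ENSMUSG00000022037, chromosome 14, 65968483 to 65981547), which encodes the secreted chaperone clusterin, stood at 100362 in WT10, 68902 in WT5, 343109 in KO1, 95887 in KO3 and 37954 in KO9 in ameloblasts. In the stratum intermedium it stood at 10000.2 in WT10, 21912 in WT5, 26702 in KO1, 15766 in KO3 and 5169.6 in KO9 and did not overlap (log2 2.83, SE 0.26, adjusted p = 0.00703). Cd24a, a small surface glycoprotein gene, was 2.36, Spint2, an inhibitor of membrane serine proteases, 1.67, and Crtac1, which encodes a secreted matrix protein, 2.09. Col9a3, which encodes a chain of collagen IX, ranged from 2826 to 7117 in ameloblasts and from 911 to 2478 in the stratum intermedium (log2 1.50, SE 0.11, adjusted p = 0.0032), and its 5 pairs were the closest together of these genes, at 1.62 in WT10, 1.31 in WT5, 1.52 in KO1, 1.43 in KO3 and 1.63 in KO9. Exons of Col9a3 overlap those of Tcfl5, and exons of Tmem213 (2.51) those of Atp6v0a4, and the strand setting of the authors' counting was not stated. The predicted gene Gm40193 (2.22) completed the 10, which also held Ambn.

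The largest differences among genes with a mean of at least 100 belonged to genes near 0 in some stratum intermedium libraries. Syt10, which encodes a synaptotagmin, a calcium sensor of vesicle release, ranged from 325 to 981 in ameloblasts and from 8.52 to 118 in the stratum intermedium (log2 4.29, SE 0.63, adjusted p = 0.0114). Ush1c, the gene of the scaffold protein harmonin, ranged from 61.2 to 904 and from 4.56 to 105 (log2 3.84, SE 0.43, adjusted p = 0.00819). F2rl2, a thrombin receptor of the protease-activated family, stood at 125 in WT10, 167 in WT5, 209 in KO1, 629.6 in KO3 and 136 in KO9 in ameloblasts and was listed at 0 in the stratum intermedium of WT10 and KO1, with 82.3 in WT5, 45 in KO3 and 26.1 in KO9. Its fitted difference (4.36) therefore depends on the added 1. The predicted genes Gm31369 (3.49) and Gm8871 (4.09) were the others, and exons of Gm8871 overlap those of its neighbour Gm8857, so that its counts may be shared. Gm8871 was also listed at 0 in the stratum intermedium of WT10 and KO1.

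**Figure D3:**
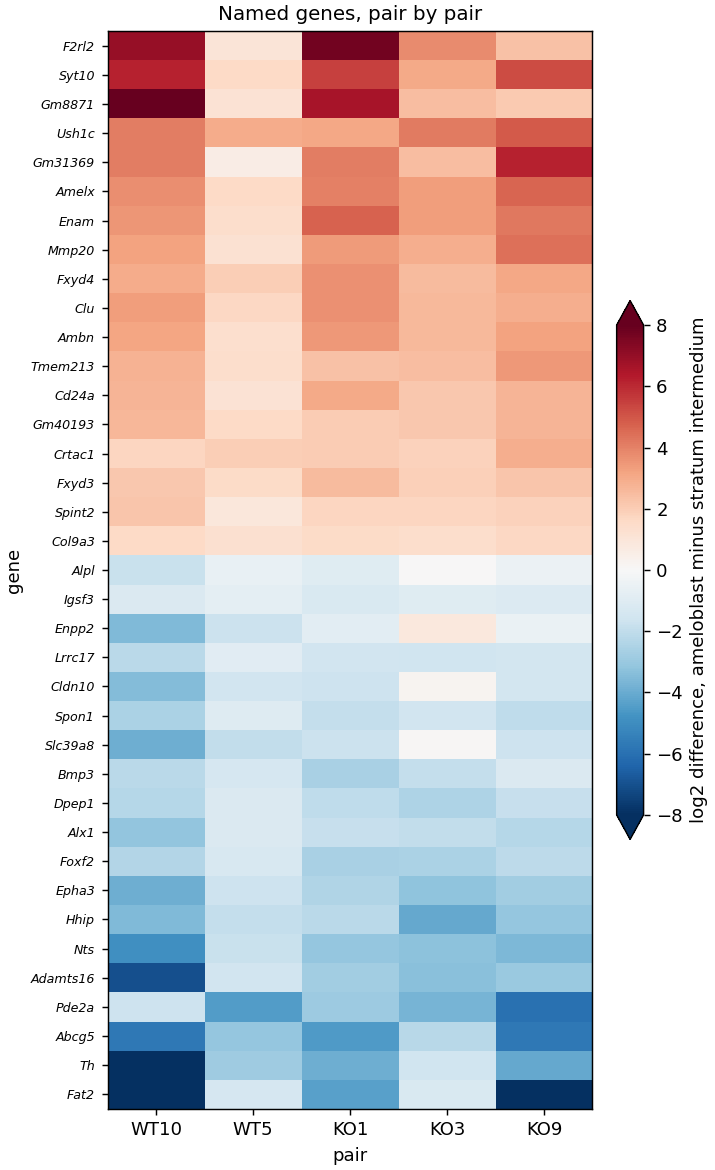
Layer difference (colour, log2, ameloblast minus stratum intermedium) of the 8 marker genes and the genes named by smallest p or largest difference (rows) in each of the 5 pairs (columns). The colour scale ends at 8 in either direction. The WT5 column is the palest for most genes, and Cldn10, Alpl, Enpp2 and Slc39a8 change sign in KO3.

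Genes of protein export were called in ameloblasts alone. All 25 protein secretion genes tested had a positive difference, 7 passed, and the median was 0.49. They included the translocon gene Sec61a1 (1.11), the translocon-associated Ssr4 (log2 0.99, SE 0.15, adjusted p = 0.0114) and Ssr2 (0.90), the cargo carriers Surf4 (1.53) and Tmed10 (0.83), and Mia3 (0.67), which loads large cargo such as collagen. With the tables scaled by their totals, which lowers every gene by 0.25, 19 of 25 were positive and 3 passed.

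Of 25 genes of the unfolded protein response, the programme that expands folding capacity in the endoplasmic reticulum, 21 had a positive difference and 9 passed, all higher in ameloblasts (median 0.64). Scaled by totals, 3 passed in this direction and 1 in the other. The list's median was 0.35 within WT pairs and 0.79 within KO pairs, a contrast that was not tested. Without pair KO1 and without KO9, 0 passed, and 14 and 18 had an unadjusted p under 0.05. Manf, a secreted stress-induced factor, stood at 10803 in WT10, 9848 in WT5, 23535 in KO1, 12935 in KO3 and 6785 in KO9 in ameloblasts. It stood at 4141 in WT10, 6161 in WT5, 4950.1 in KO1, 4679 in KO3 and 3700.0 in KO9 in the stratum intermedium, below the lowest ameloblast library throughout (log2 1.33, SE 0.21, adjusted p = 0.013). The stress sensors Ern1 (1.50), Eif2ak3 (1.02) and Atf6 (0.75) all passed, as did the chaperone genes Sdf2l1 (1.23), Dnajb11 (0.81), Pdia3 (1.08), Dnajb9 (0.69) and Calr (0.58). Hspa5, the central chaperone BiP, was 0.64 (adjusted p = 0.0954) and Xbp1, the transcription factor of the Ern1 branch, 0.70 (adjusted p = 0.0577).

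Calr serves as the example of a folding gene with the ER stress element, the site of the factor ATF6 with NF-Y. The same 250-base window of RefSeq is given, with capitals marking the whole match of CCAAT, 9 bases of any kind and CCACG, searched on both strands and read here from the opposite one.
Calr promoter, chr8:84846932-84847181, minus strand: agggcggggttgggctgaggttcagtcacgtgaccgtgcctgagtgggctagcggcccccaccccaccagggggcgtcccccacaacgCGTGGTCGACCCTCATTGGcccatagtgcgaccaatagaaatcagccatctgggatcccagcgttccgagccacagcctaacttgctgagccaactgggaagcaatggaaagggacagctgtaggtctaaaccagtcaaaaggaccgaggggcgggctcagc
The match lies 162 to 144 bases before the start and contains a CCAAT box by construction. It was found in 8 of the 22 unfolded protein response genes with a window, against 17 of 11137 over all genes tested (0.153%). The 8 were Calr, Canx, Creld2, Dnajc3, Hsp90b1, Hspa5, Pdia6 and Syvn1, of which Calr alone passed the layer test. The members of this list were chosen for their known part in that response, so the share is a description of the list.

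Lipid and lysosome genes were also called towards ameloblasts. Of 24 cholesterol and fatty acid synthesis genes, 6 passed, all higher in ameloblasts, with a median of 0.54, and 3 passed with scaling by totals. They included the desaturase genes Scd1 (log2 1.72, SE 0.25, adjusted p = 0.0114) and Scd2 (0.89), the sterol genes Fdps (0.73) and Fdft1 (0.84), and the elongase gene Elovl6 (0.93). The median of this lipid list was 0.18 within WT pairs and 0.92 within KO pairs, a contrast that was not tested. Of 21 genes of the V-ATPase, the proton pump of acid compartments, and the lysosome, 5 passed higher in ameloblasts, among them Atp6v0a1 (1.06) and Ctsd (0.82). Their median of 0.27 became 0.026 with scaling by totals, where 2 passed in each direction. Of 22 glycolysis and hypoxia genes 4 passed higher in ameloblasts, Ndrg1 (2.14), Hk2 (1.13), Pgam1 (0.97) and Bnip3 (0.93). Of these 22 genes, 13 had a positive and 9 a negative difference. The list's median was 0.071, and -0.18 with scaling by totals. With limma 0 of 28 cytosolic ribosomal protein genes passed (1 at an unadjusted p under 0.05, median 0.15), 0 of 13 mitochondrially encoded genes (0 at an unadjusted p under 0.05) and 0 of 26 nuclear respiratory chain genes (7 at an unadjusted p under 0.05, median -0.18). For the respiratory chain genes this depended on the scaling, with 15 of 26 called higher in the stratum intermedium after scaling by totals (median -0.42), 3 without rescaling and 4 with quantile normalization.

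Calcium genes were the transport group with the most calls. Of 16 tested, 7 passed higher in ameloblasts, 4 of them with scaling by totals or without rescaling, and 1 in the stratum intermedium (median 0.57), and without pair KO1 or KO9 0 did, with 9 and 8 that had an unadjusted p under 0.05 towards ameloblasts. Calb1, which encodes the calcium-buffering protein calbindin of secretory ameloblasts, ranged from 57289 to 308835 in ameloblasts and from 7611 to 38325 in the stratum intermedium (log2 2.59, SE 0.38, adjusted p = 0.0114). The plasma membrane calcium pump gene Atp2b1 stood at 29236 in WT10, 14471 in WT5, 33516 in KO1, 31729 in KO3 and 19761 in KO9 in ameloblasts. In the stratum intermedium it stood at 4103 in WT10, 9660.1 in WT5, 5687 in KO1, 6631 in KO3 and 3788 in KO9, with no overlap (log2 2.12, SE 0.29, adjusted p = 0.0114). The release channels of the endoplasmic reticulum Itpr3 (1.85) and Itpr1 (1.06), its pump Atp2a2 (0.75), its calcium sensor Stim2 (0.60) and the channel gene Trpm7 (1.50) passed as well. Slc8a1, the sodium-calcium exchanger NCX1, went the other way in all 5 pairs (log2 -2.20, SE 0.35, adjusted p = 0.0136).

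Among pH genes, 2 of 15 passed higher in ameloblasts, the chloride and bicarbonate channel gene Cftr (log2 2.22, SE 0.29, adjusted p = 0.0113) and the carbonic anhydrase gene Car13 (1.44). Slc4a4, a sodium bicarbonate cotransporter of the maturation stage, was -1.10 without passing, from -3.66 in WT10 to 0.58 in KO3. Of 15 maturation-stage ameloblast genes Cftr was the 1 that passed, and the list's median was -0.037. Of 18 zinc and manganese transporter genes 4 passed higher in ameloblasts, Slc39a11 (1.45), Slc30a4 (1.30), Slc39a13 (0.69) and Slc39a4 (3.70), against Slc39a8 in the other direction. Slc39a4 was listed at 0 in the stratum intermedium of WT10. The log2 difference of Slc39a4 therefore depends on the added 1, and its call (limma, adjusted p = 0.0492) was lost with an added 0.5 (adjusted p = 0.0624, with 0.0121 to 0.1505 over the alternatives). Without rescaling 2 of the 4 passed. Of 9 autotaxin and lysophosphatidic acid genes the receptor gene Lpar1 passed higher in ameloblasts (0.90), and the phosphatase gene Plpp3 (-0.97) and the receptors Lpar6 (-0.59) and Lpar4 (-1.41) higher in the stratum intermedium. Among 9 phosphate genes, Ank, which exports pyrophosphate, passed higher in ameloblasts (0.96), and among 13 iron genes the importer gene Slc11a2 (1.26).

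Adhesion genes were called in both directions. Of 17 hemidesmosome and basement membrane genes, 6 passed higher in ameloblasts and 5 in the stratum intermedium. The first 6 were Col17a1 (log2 1.68, SE 0.22, adjusted p = 0.0111), Lamb3 (log2 2.49, SE 0.33, adjusted p = 0.0114), Itgb4 (1.73), Itga6 (1.01), Cd151 (0.92) and Dst (0.84), which encode parts of the hemidesmosome, the junction that holds an epithelium to its basement membrane, and of the laminin it binds. The 5 others were Nid1 (log2 -1.82, SE 0.24, adjusted p = 0.0114), Nid2 (-1.37), Col4a1 (-1.48), Col4a2 (-1.34) and Lamc1 (-1.26), general basement membrane genes that vessels also express. The integrin gene Itgb6, whose loss disturbs enamel, was 2.15.

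Of 10 keratin genes 5 passed, all higher in ameloblasts, Krt14 (1.43), Krt5 (0.80), Krt8 (1.78), Krt18 (1.60) and Krt80 (1.46). The other 5 had negative differences without passing, among them Krt17 (-0.55), and the list's median was 0.34. Desmosome genes gave 4 of 13 calls towards ameloblasts, Perp (1.24), Pkp3 (0.97), Evpl (1.49) and Dsg2 (0.63). Of the 13 desmosome genes, 7 had a negative difference, and the list's median was -0.096. Dsc3 was -1.05 without passing, at -3.01 in WT10, -1.23 in WT5, -1.02 in KO1, 0.67 in KO3 and -0.65 in KO9 in the pairs. Of 17 adherens and gap junction genes, Cdh1, which encodes E-cadherin, passed higher in ameloblasts (1.65) and the gap junction gene Gjc1 higher in the stratum intermedium (-0.69). The pan-epithelial list as a whole gave 5 of 12 calls, all higher in ameloblasts (median 0.48).

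Claudins, the family of the targeted gene, did not move together. Of 10 tested, Cldn20 passed higher in ameloblasts (log2 2.51, SE 0.29, adjusted p = 0.00819), and Cldn11 (log2 -2.41, SE 0.47, adjusted p = 0.0227) and the endothelial Cldn5 (-1.65) higher in the stratum intermedium. Cldn1 stood beside Cldn10 without passing, at -1.48, lower in ameloblasts in all 5 pairs. Among 22 other tight junction genes 2 passed, both higher in ameloblasts, among them Lsr (1.31), which encodes a protein of tricellular junctions. Scaled by totals, 3 passed in the other direction. Ocln, the gene of occludin, was -1.51 without passing, at -3.90 in WT10, -1.33 in WT5, -1.89 in KO1, 0.039 in KO3 and -0.47 in KO9.

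Epha3 and Nts were among the 10 genes with the smallest p-values higher in the stratum intermedium. Epha3 (ENSMUSG00000052504, chromosome 16, 63543534 to 63864175), an ephrin receptor gene, stood at 4712 in WT10, 2080.1 in WT5, 3854 in KO1, 6801 in KO3 and 6723 in KO9 in the stratum intermedium. It stood at 319.7 in WT10, 652 in WT5, 711 in KO1, 745 in KO3 and 977 in KO9 in ameloblasts, with no overlap (log2 -2.79, SE 0.27, adjusted p = 0.00819). Nts (ENSMUSG00000019890, chromosome 10, 102481756 to 102490486), which encodes the peptide neurotensin, stood at 12269 in WT10, 3892 in WT5, 9037 in KO1, 14619 in KO3 and 12370.1 in KO9 in the stratum intermedium. Its ameloblast values were 407 in WT10, 1142 in WT5, 1064 in KO1, 1487 in KO3 and 1039.9 in KO9, all below the lowest stratum intermedium library (log2 -3.33, SE 0.36, adjusted p = 0.00819).

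Igsf3, an immunoglobulin-family membrane protein gene, had the smallest change and the tightest pairs of these, at -1.14 in WT10, -0.76 in WT5, -1.21 in KO1, -0.97 in KO3 and -1.09 in KO9 (log2 -1.03, SE 0.11, adjusted p = 0.00819). The membrane dipeptidase gene Dpep1 was -1.94, the matrix genes Spon1 and Lrrc17 -1.80 and -1.53, and Bmp3, a ligand that opposes other bone morphogenetic proteins, -1.83. Foxf2 (-2.17) and Alx1 (-2.08) encode transcription factors known from craniofacial mesenchyme. For Igsf3, Dpep1, Spon1, Lrrc17, Bmp3, Foxf2 and Alx1 alike, every stratum intermedium library was above every ameloblast library. Exons of Alx1 overlap those of Gm17028.

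The largest such differences belonged to Fat2, Th, Abcg5, Pde2a and Adamts16. Abcg5, which encodes a sterol transporter subunit and whose exons overlap those of its partner Abcg8, ranged from 328 to 1183 in the stratum intermedium and from 14 to 159.6 in ameloblasts (log2 -4.26, SE 0.54, adjusted p = 0.0108). Pde2a, a cyclic nucleotide phosphodiesterase gene, ranged from 135 to 361 and from 2.12 to 47.2 (log2 -3.74, SE 0.61, adjusted p = 0.0145). Fat2, an atypical cadherin gene, was listed at 0 in the ameloblasts of WT10 and KO9 and stood at 314 to 757 in the stratum intermedium, and Th, the gene of tyrosine hydroxylase, and Adamts16, a metalloprotease gene, were each listed at 0 in the ameloblasts of WT10. Their fitted differences (-4.95, -4.43 and -3.55) depend on the added 1.

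Genes of cell division were higher in the stratum intermedium. Of 25 cell cycle genes, 24 had a negative difference and 17 passed in that direction, with a median of -1.32. Without pair KO1 and without KO9, 0 passed, 21 and 22 had an unadjusted p under 0.05 towards the stratum intermedium, and the medians were -1.27 and -1.36. Top2a, the topoisomerase of dividing cells, stood at 3227 in WT10, 2199.8 in WT5, 2071 in KO1, 2844 in KO3 and 3646 in KO9 in the stratum intermedium. It stood at 821 in WT10, 1707 in WT5, 654 in KO1, 1035 in KO3 and 1045 in KO9 in ameloblasts, with no overlap (log2 -1.45, SE 0.22, adjusted p = 0.0121). Mki67, the classical proliferation mark, differed by -1.50 in WT10, -0.002 in WT5, -2.13 in KO1, -1.30 in KO3 and -1.44 in KO9, so that WT5 showed next to no difference (log2 -1.28, SE 0.26, adjusted p = 0.0264).

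Mitotic genes followed, with Cenpf at -1.44, Ccnb1 at -1.80, Ccnb2 at -1.75, Plk1 at -1.75, Aurkb at -1.75 and Kif11 at -2.05, and so did the nucleotide synthesis gene Rrm2 (-0.95) and the replication helicase gene Mcm5 (-1.10). Cdk1 (-1.56), Pcna (-0.55) and Ccnd1 (-0.33) did not pass. The 1 gene of the list that was higher in ameloblasts was Cdkn1a, which encodes the cycle inhibitor p21. It stood at 71612 in WT10, 20732 in WT5, 51536 in KO1, 39538 in KO3 and 32841 in KO9 in ameloblasts. Its stratum intermedium values were 14460.4 in WT10, 12420.0 in WT5, 13915 in KO1, 14014 in KO3 and 8045 in KO9, and the layers did not overlap (log2 1.69, SE 0.21, adjusted p = 0.0106). Of the 17 called cell cycle genes, 15 had a promoter window, and 13 of these held CCAAT, against 40.3% of all genes tested with a window. Of the unfolded protein response genes, which leaned towards ameloblasts, 20 of 22 with a window held CCAAT. Among all called genes the share was 42.7% for ameloblasts and 43.7% for the stratum intermedium. The lists were chosen by function, so their shares describe the lists and not a layer.

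Genes that mark other tissues also differed between the captures. All 12 endothelial and mural cell genes had a negative difference and 10 passed, with a median of -1.37. Without pair KO1 and without KO9, 0 passed and 10 and 11 had an unadjusted p under 0.05. Pecam1, which encodes the endothelial adhesion molecule CD31, stood at 1243 in WT10, 1314 in WT5, 1369 in KO1, 1437 in KO3 and 1516 in KO9 in the stratum intermedium. It stood at 221 in WT10, 978 in WT5, 456 in KO1, 633 in KO3 and 372 in KO9 in ameloblasts, with no overlap (log2 -1.54, SE 0.27, adjusted p = 0.0182). The vascular growth factor receptors Kdr (-1.22) and Flt1 (-1.44), Emcn (-1.60), Tek (-1.31) and the pericyte genes Rgs5 (-1.91) and Pdgfrb (-1.06) passed as well. Summed, the list made up 0.0677% to 0.108% of the stratum intermedium libraries and 0.0175% to 0.0482% of the ameloblast libraries, and none of its genes was listed at 0 anywhere. The part of vessel cells in the cell cycle and basement membrane differences was not tested.

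Of 14 skeletal muscle genes all had a negative difference and 5 passed, Tnni2 (-0.92), Myl1 (-0.99), Tnnc2 (-1.04), Tnnt3 (-1.09) and Myh8 (-1.14), with a summed share of 0.144% to 0.929% in the stratum intermedium and 0.0257% to 0.483% in ameloblasts. Tcap, Mb, Myh1, Myh2 and Myh4 were listed at 0 in some library. Scaled by totals, 8 passed. With no replicate block, with the labels' replicate numbers as the block and with genotypes weighted equally, 0 passed. The list's median was 0.15 in pair WT5 and negative in every other pair. Of 18 interferon response genes 4 passed higher in the stratum intermedium, Bst2 (-0.86), Ifi35 (-0.80), Irf9 (-0.82) and Usp18 (-1.56), with a median of -0.79. Scaling by totals gave 7, and genotypes weighted equally gave 0. No replicate block gave 1, as did the labels' replicate numbers as the block. Fibroblast genes made up 2.46% to 4.84% of the ameloblast and 2.10% to 5.25% of the stratum intermedium libraries, with 1 of 11 called, Col3a1 (-0.98). Scaling by totals gave 4 fibroblast calls, and no replicate block gave 0. Odontoblast and pulp genes made up 3.13% to 6.14% and 2.56% to 7.17%, with 2 of 14 called higher in ameloblasts, Dspp and Phex (1.14), and 1 lower, Vcan (-0.72). Of 12 osteoblast genes 2 passed, both higher in ameloblasts. Scaled by totals or without rescaling, 2 osteoblast genes passed in each direction. With no replicate block or with the labels' replicate numbers as the block, 0 passed. The summed share of the osteoblast list was higher in ameloblasts in 2 of 5 pairs. The osteocalcin genes Bglap (1.39) and Bglap2 (1.10), and 2 of 6 Schwann cell and nerve genes, the neuronal tubulin gene Tubb3 (log2 2.41, SE 0.31, adjusted p = 0.0109) and the myelin gene Mbp (0.98), were higher in ameloblasts. The other 4 Schwann cell and nerve genes had negative differences, 1 of them at an unadjusted p under 0.05, and the list's median was -0.87. With limma, osteoclast (9 tested), red blood cell (5) and cartilage (3) genes gave 0 calls and 0 unadjusted p under 0.05, and leukocyte (12) and oral epithelium (9) genes gave 0 calls and 2 and 1 such p. The part of these tissues in the differences above was not tested.

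**Figure D4:**
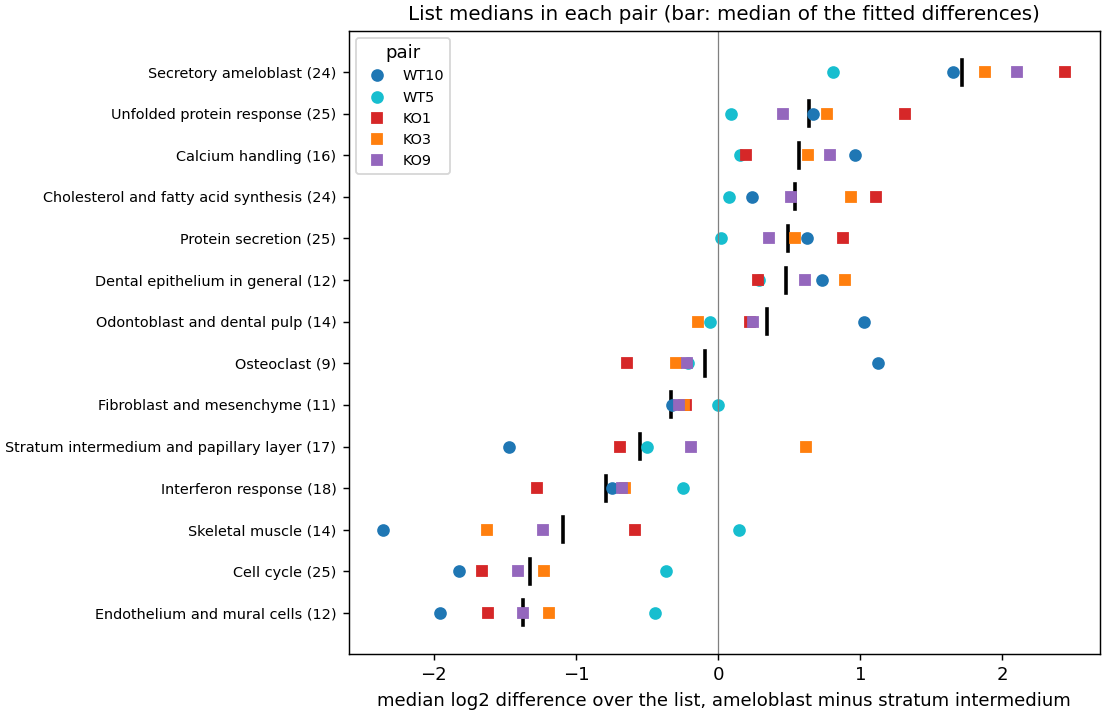
Median layer difference (horizontal axis, log2, ameloblast minus stratum intermedium) of 14 gene lists in each pair (circles for WT, squares for KO), with the number of genes tested in brackets and a black bar for the median of the fitted differences. The secretory ameloblast list lies above 0 and the cell cycle and endothelium lists below 0 in all 5 pairs, with WT5 nearest 0.

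Signalling genes were called in both layers. Of 24 Wnt genes, 6 passed higher in ameloblasts and 5 in the stratum intermedium. Without pair KO1 or KO9, 0 passed, with 14 at an unadjusted p under 0.05 each time. The ligand gene Wnt6 stood at 7237 in WT10, 1975 in WT5, 9877 in KO1, 4746 in KO3 and 5055 in KO9 in ameloblasts. It stood at 1294 in WT10, 951 in WT5, 1625 in KO1, 986 in KO3 and 549.9 in KO9 in the stratum intermedium, with no overlap (log2 2.32, SE 0.26, adjusted p = 0.00819). The ligand genes Wnt10a (2.48) and Wnt3a (2.04), the receptor gene Fzd6 (1.14) and the inhibitors Dkk1 (1.35) and Kremen1 (1.04) were also higher there. Higher in the stratum intermedium were the inhibitor genes Sostdc1 (log2 -2.64, SE 0.44, adjusted p = 0.0155) and Sfrp1 (-2.24), the ligand gene Wnt5a (-1.27), the receptor gene Fzd1 (-1.18) and the nuclear effector Lef1 (-1.28).

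Among 13 hedgehog genes the ligand gene Shh, which dental epithelium secretes, was higher in ameloblasts, from 1798 to 7696 against 840 to 2758 (log2 1.76, SE 0.29, adjusted p = 0.0156). Hhip (ENSMUSG00000064325, chromosome 8, 79965851 to 80058006), which encodes an inhibitor that binds the ligand, stood at 2467 in WT10, 1002 in WT5, 1016 in KO1, 4055 in KO3 and 3874 in KO9 in the stratum intermedium. Its ameloblast values were 212 in WT10, 268 in WT5, 229.6 in KO1, 241 in KO3 and 461 in KO9, with no overlap (log2 -2.94, SE 0.31, adjusted p = 0.00819). Exons of Hhip overlap those of Gm27820. The receptor gene Ptch1 (-0.30) and the effectors Gli1 (-0.18) and Gli2 (-0.76) did not pass.

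Of 19 Notch genes, the ligand gene Jag2 passed higher in ameloblasts, from 557 to 1409 against 233 to 408 (log2 1.64, SE 0.28, adjusted p = 0.016), and the receptor gene Notch2 (log2 -1.37, SE 0.35, adjusted p = 0.0485) and the sugar transferase gene Mfng (-1.66) higher in the stratum intermedium. The layers did not overlap for any of these 3. Of 23 BMP and activin genes, the ligand Bmp4 (0.96), the target Id1 (0.85) and the inhibitor Smad6 (1.05) passed higher in ameloblasts, and Bmp3 and the activin subunit gene Inhba (log2 -1.85, SE 0.25, adjusted p = 0.0114) higher in the stratum intermedium. In the FGF list 1 of 16 passed, Fgfr1 (0.63). Of 24 dental epithelial transcription factor genes, Sp6 (log2 2.34, SE 0.27, adjusted p = 0.00819), the epithelial factor epiprofin, Satb1 (1.68) and Dlx3 (1.60) passed higher in ameloblasts, and Lef1 and Bcl11b (-1.05) higher in the stratum intermedium, where scaling by totals gave 6. Among 20 immediate early and heat shock genes Klf4 was the 1 that passed (1.39).

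Within genotypes the layer difference had the same direction for all 1266 called genes, which the pooled call favours. In the 3 KO pairs 518 genes passed (3.32%), 372 (2.38%) higher in ameloblasts and 146 (0.935%) higher in the stratum intermedium. The spread behind these calls was estimated from the libraries of both genotypes, so that disagreement between the 2 WT pairs also enters them. The KO calls therefore favour genes on which the WT pairs agree, and the shares that follow are no separate support. In the 2 WT pairs 0 genes passed with limma (0%), where the smallest adjusted p was 0.439 and 1710 genes (11%) had an unadjusted p under 0.05. Both WT pairs went the same way as the KO pairs for 316 of the 372 and for 124 of the 146 genes called in the KO pairs (84.9% each), against 27.6% and 28.5% of all genes tested that were higher in ameloblasts or in the stratum intermedium in both WT pairs. The median of the 372 genes was 1.67 in the KO pairs, 1.47 in WT10 and 0.46 in WT5, and that of the 146 was -1.43, -1.12 and -0.40. Across the 15610 genes the WT and KO differences were correlated at r = 0.386, a description over genes, which are not independent replicates.

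The difference between the genotypes' layer differences passed for 0 genes (0%) with limma, with a smallest adjusted p of 0.837 and 801 genes (5.13%) at an unadjusted p under 0.05. Among the marker genes Enpp2 had the smallest unadjusted p for it (0.00712, adjusted p = 0.837), with -2.62 in the WT pairs and -0.18 in the KO pairs. Slc39a8 was -2.94 and -1.08, and Alpl -1.21 and -0.47. The enamel matrix genes ran the other way, with Amelx at 2.68 in WT and 4.02 in KO, Enam at 2.47 and 4.08, and Ambn at 2.26 and 3.10, none past the threshold. The WT figures are means of WT10, with the largest spread of differences over genes, and WT5, with the smallest.

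**Figure D5:**
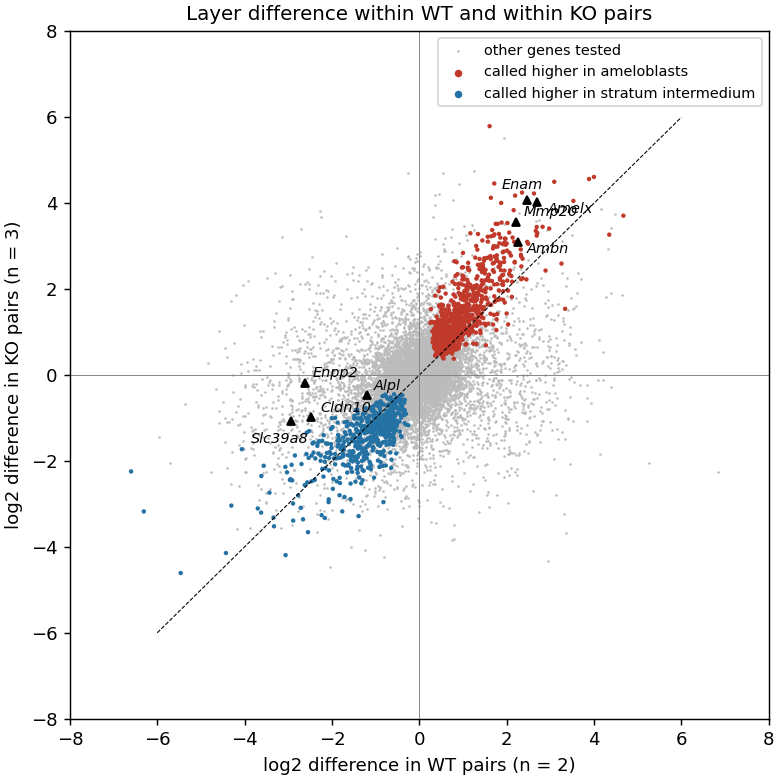
Layer difference (log2, ameloblast minus stratum intermedium) in the 2 WT pairs (horizontal axis) against the 3 KO pairs (vertical axis) for the 15610 genes tested, with the 740 and 526 called genes in red and blue, the 8 marker genes as triangles and a dashed line of equal difference. Enpp2 lies near 0 on the KO axis, and the enamel matrix genes lie above the line.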

How the data were processed

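Ameloblasts and stratum intermedium were captured by laser from frozen sections, and stranded polyA libraries were made, per the labels' protocols. The signal values are normalized counts per gene, deposited by the authors as 1 table for each layer, which the table names call DESeq2 normalized with outliers left out. The submitters' processing notes name GRCm38 and, among tools, DESeq, featureCounts, Picard 2.8.1, STAR 2.5.2b and FastQC, with settings not given in the sources used here. Every gene of a table reached 10 in at least 3 of its 5 libraries, as read from the values, so that a gene missing from a table has no value there. Whole reads could not be recovered, so no count test or counting interval was made.

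Columns were matched to samples by library name, with 0 columns unused. The stratum intermedium table was rescaled by the median ratio over shared genes above 0 in every library. Layer differences were tested two-sided with limma 3.58.1 in R 4.3.3 (trend) on log2(value + 1) for 15610 genes whose mean reached 10. The prefix was a block, with Benjamini-Hochberg adjustment at 0.05. The pooled fit was also run on simulated data with independent noise of equal spread in all pairs, unlike the pairs here. That run does not cover the WT, KO and genotype terms. WT and KO layer terms and their difference came from a second fit of the same libraries. Fold changes are on the log2(value + 1) scale, which understates those of low genes. Pairs were taken from the prefix. Deviations from the group means were correlated between layers at 0.199 to 0.312 for the same prefix. The negative values for different prefixes follow in part from the centring and are no further support, and the uncentred levels were not most alike within the prefix for WT10 (0.828 against 0.851 with WT5), KO1 (0.875 against 0.884 with KO3) and KO9 (0.870 against 0.872 with KO3). The labels' own replicate numbers pair other KO libraries and were tried as an alternative.

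Named were the 8 marker genes, in each direction the 10 called genes with the smallest p and the 5 with the largest difference at a mean of at least 100, all with 5 pairs in 1 direction, and members of 47 gene lists with small p-values or of textbook standing. The members and lists were chosen with earlier results of these data known. Positions and exon overlaps came from GENCODE (GRCm38), promoter windows from RefSeq. Alternatives changed scaling, pseudocount (0.5, 8), filter (none, 50), variance, library weights (statmod 1.5.0), block, genotype weights and threshold, and left out each pair. Some called genes are not reported here by name.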

Additional observations from a re-analysis of the deposited data

Results flagged for a closer look

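For 11 named genes and 1 gene list, 1 pair lay far from the other 4, by a gap of more than 0.71 of the whole range of the 5 layer differences. Chance puts about 1 in 20 such groups past this limit, and 242 genes and lists were examined. In 8 of the genes the pair was WT5, whose difference was nearest 0. It was 0.58 for the calcium pump gene Atp2b1 against 2.26 to 2.83 in the other pairs, 0.40 for the transcription factor gene Dlx3 against 1.64 to 2.13, and 0.01 for the cargo receptor gene Mia3 against 0.78 to 0.88. It was 0.06 for Phex, an endopeptidase gene of mineralized tissue, against 1.17 to 1.52, and -0.15 for the chloride transporter gene Clcn3, against 0.93 to 1.12. Among genes higher in the stratum intermedium WT5 stood at -0.22 for Bst2 against -1.16 to -0.93, at -0.25 for Col4a2 against -1.87 to -1.45, and at -0.59 for Inhba against -2.38 to -1.96.

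In the other 3 genes the pair was not WT5. Cldn1 was -3.83 in WT10 and -1.19 to -0.27 elsewhere, Evpl was 0.34 in KO1 and 1.64 to 1.91 elsewhere, and Crtac1 was 2.88 in KO9 and 1.71 to 2.04 elsewhere. The osteoclast list had a median difference of 1.13 in WT10 and -0.64 to -0.21 in the other pairs.

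The red blood cell genes (5 tested) had positive medians in both WT pairs, 1.07 in WT10 and 0.55 in WT5, and negative medians in all 3 KO pairs, -0.41 in KO1, -0.59 in KO3 and -0.78 in KO9. The KO minus WT difference of the list's medians was -1.35, and this difference was not tested.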

How the results depend on the processing

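All 1266 called genes kept their direction under every alternative in which they were tested (1264 of them with a mean of at least 50). Of the 195 genes named here 0 changed direction. The alternatives of variance, block, filter and threshold leave the estimate of a gene unchanged, so its direction could not change there. The fits without 1 pair reuse the other pairs that gave the calls. Against 740 calls higher in ameloblasts and 526 higher in the stratum intermedium, scaling by totals gave 445 and 1548 (22.3% towards ameloblasts, against 58.5%), no rescaling 501 and 893 (35.9%), and genes with a mean of at least 1000 as the base for scaling 593 and 658 (47.4%), and these shift the median of all genes to -0.25, -0.15 and -0.074. Library weights gave 1109 and 819 calls, genotypes weighted equally 436 and 226, and an adjusted p threshold of 0.1 gave 1209 and 997. With no replicate block the pairing was ignored and 448 and 286 genes were called, and with the labels' replicate numbers as the block 374 and 197, in place of the prefix, whose pairing is the main design. Leaving out 1 pair gave 4 to 1256 calls higher in ameloblasts and 0 to 908 higher in the stratum intermedium, the lowest without KO9 and the highest without WT5, with fewer libraries in each fit. Within KO pairs 518 calls became 958 with quantile normalization, 1687 with library weights and 1428 at the threshold of 0.1, and 0 to 1638 with 1 pair left out. Within WT pairs 0 calls became 1 without WT10 and 1214 without WT5, where 1 WT pair is assumed to vary like the KO pairs. The genotype difference gave 0 calls, with 0 to 2 when 1 pair was left out. The causes were not tested. The depth behind these values is unknown.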

Other observations

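Some genes were listed in 1 table and not in the other, so that no difference can be given for them. There were 667 such genes in the ameloblast table, 15 of them with a mean of at least 100, and 1013 in the stratum intermedium table, 14 of them with such a mean. Most were low, with medians of 17.2 and 18.8 normalized counts over the genes' means. Trp53cor1, a long noncoding RNA known as lincRNA-p21, was listed for ameloblasts at 108 to 165 in the 5 libraries. Pla2g2f, which encodes a secreted phospholipase, was listed there at 29.6 to 891, and Lrrn2, a leucine-rich repeat membrane protein gene, at 59.0 to 224. Rgma, which encodes a guidance molecule and BMP co-receptor, was listed for the stratum intermedium at 78.5 to 218, and the ion channel gene Trpa1 at 40.1 to 264. These genes were chosen after their values were seen.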
